A study of Mus musculus with 24 samples.

Results

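Replication-dependent histone genes were followed in nuclear RNA of mouse embryonic stem (ES) cells with and without the m6A RNA methyltransferase subunits Mettl14 and Mettl3. A gene was taken as a member when its symbol began with Hist1h, Hist2h, Hist3h or Hist4h and it had counts in both the RNA-seq and the MeRIP-seq data (m6A RNA immunoprecipitation, IP, followed by sequencing). This rule found 66 of the 29737 genes with counts in both: 6 H1, 19 H2A, 17 H2B, 11 H3 and 13 H4 genes. A further 2 genes with such symbols, Hist2h2aa1 and Hist2h3c1, had counts in MeRIP-seq only, and Hist1h2bh and Hist1h2bm were not analysed here. On GRCm38, 54 members lie on chromosome 13, all but Hist1h2al (chr13:51202727-51203065) in the Hist1 cluster, 8 on chromosome 3 in the Hist2 cluster, 3 on chromosome 11 (Hist3) and 1 on chromosome 6 (Hist4h4). In the annotation 63 are protein coding and 3 (Hist1h2aj, Hist1h2al and Hist3h2bb-ps) are pseudogenes, and 61 consist of a single exon block.

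Histone proteins package DNA. H2A, H2B, H3 and H4 form the nucleosome core and H1 binds the linker DNA between nucleosomes. Cells need new histones when DNA is copied, and replication-dependent genes supply them in S phase from clustered copies with nearly identical coding sequences. Their mRNAs typically have no introns and no poly(A) tail: the 3′ end is cut after a short stem-loop that the stem-loop binding protein Slbp holds, with the help of the U7 snRNP, and the same stem-loop guides decay when replication stops. Because the MeRIP-seq RNA was depleted of rRNA and primed with random hexamers rather than selected for poly(A), these mRNAs could be captured there. For RNA-seq the paper refers to its supplement. m6A is set by the Mettl3/Mettl14 complex at adenosines in the RRACH context (a purine, a purine, A, C, then A, C or T) and is best known from the region around stop codons and in 3′UTRs of polyadenylated mRNA.

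The stem-loop is the element that separates these genes from other mRNA genes, and it was not used to choose them. The letters GG, NN, CTTT, NN, AG, NN and CC in a row (N is any base) were searched on the sense strand. The search covered the 150 bases after the stop codon farthest downstream in each coding gene. They were found in 56 of the 63 coding members (88.9%) and in 6 of 21597 other coding genes (0.0278%). The genes without a match were Hist1h3g, Hist1h4a, Hist1h2an, Hist2h2be, Hist1h2bp, Hist1h2bq and Hist1h2br. The last 3 are annotated with coding sequences of 414, 402 and 402 bases, against 378 in other H2B genes such as Hist1h2bb. Any earlier stop codon of these 3 genes was not searched. The commonest version occurred in 34 members of the types H1, H2A, H2B and H3, and a version with another base pair in the stem by 8 members, all of them H4 genes. The stem-loops of genes described below are shown with the matched letters in capitals and 5 bases on each side, on GRCm38, each at the coordinates of its capitals.
Hist1h1c, chr13:23739512-23739527, + strand: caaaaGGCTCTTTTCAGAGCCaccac
Hist1h2af, chr13:23534359-23534374, + strand: ccaaaGGCTCTTTTCAGAGCCaccac
Hist1h2ak, chr13:21753382-21753397, − strand: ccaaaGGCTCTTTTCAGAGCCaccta
Hist1h2bb, chr13:23747203-23747218, + strand: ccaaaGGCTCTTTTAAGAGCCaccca
Hist1h3e, chr13:23561903-23561918, − strand: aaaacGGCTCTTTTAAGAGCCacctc
Hist1h4h, chr13:23531458-23531473, + strand: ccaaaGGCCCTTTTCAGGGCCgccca
Hist1h4b, chr13:23757366-23757381, + strand: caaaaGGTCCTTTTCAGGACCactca
Hist2h4, chr3:96262939-96262954, − strand: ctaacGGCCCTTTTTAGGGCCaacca
Hist4h4, chr6:136803998-136804013, − strand: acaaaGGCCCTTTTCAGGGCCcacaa

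Some promoters of the H2A and H2B genes, but fewer than 50% of either type, held a second element. The octamer ATTTGCAT, searched on both strands from 250 bases before to 50 bases after the start of RefSeq genes (GRCm38), was present in 7 of 17 H2A and 5 of 14 H2B promoters that could be matched. It was in 0 of 5 H1, 0 of 9 H3 and 0 of 12 H4 promoters and in 1.70% of 32788 other promoters of the same length. CCAAT, also on both strands, was present in all matched H1, H2A, H2B and H3 promoters, in 3 of 12 H4 promoters and in 37.3% of the others. The octamers of 5 genes are shown in capitals with 8 bases on each side, in the direction of the gene. Hist1h2ae and Hist1h2bg lie head to head and hold the same site, so that 1 octamer stands in both promoters. The same holds for Hist1h2aa with Hist1h2ba and for Hist1h2ah with Hist1h2bk, so that the H2A and H2B counts are not independent. The sites of Hist1h2ac and Hist2h2ac also lie before the annotated starts of Hist1h2bc and Hist2h2be, H2B genes on the opposite strand. These are not among the 5 H2B promoters counted.
Hist1h2ab, chr13:23750959-23750966, + strand: aggcctttATGCAAATgaggagct
Hist2h2ac, chr3:96221073-96221080, − strand: aacgccttATGCAAATtaggtctc
Hist1h2ae, chr13:23571341-23571348, − strand: gaggttctATGCAAATaagggact
Hist1h2bg, chr13:23571341-23571348, + strand: agtcccttATTTGCATagaacctc
Hist1h2bb, chr13:23746644-23746651, + strand: agtctcttATTTGCATaaagcctt

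The libraries came from 4 lines of mouse ES cells grown with Serum Replacement and LIF. WT26 is the wild type (129/Sv x C57Bl6), and the Mettl14 KO line is clone A10, the only homozygous clone obtained from it by CRISPR, with a deletion in the MT-A70 region. RBC cells carry BirA-V5 at Rosa26 and the Cre-ERT2 recombinase and are the control of the Mettl3 KO line, clone 2c4d, which was derived from them and shares these alleles. Each knockout is thus 1 clone. Every line had 2 RNA-seq libraries and, in MeRIP-seq, 2 inputs and 2 m6A IPs of sonicated RNA. The p-values rest on the spread between the 2 libraries of a group, pooled over all groups of RNA-seq or of MeRIP-seq in 1 fit. They do not measure spread between clones.

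RNA-seq libraries held 11321459 to 13743181 counts and MeRIP-seq libraries 9394163 to 28441282, of which the members took 0.230% to 0.332% in RNA-seq and 0.0704% to 0.137% in the inputs. The mRNA of the targeted genes persisted: normalised Mettl14 counts were 401 and 358 in WT26 against 297 and 316 in the knockout, and Mettl3 counts were 928 and 979 in RBC against 880 and 821 in Mettl3 KO cells. All 8 ES cell markers were lower in Mettl14 KO cells at an adjusted p of at most 0.05 (median log2 fold change −0.46), while all 5 tested primitive endoderm markers were more than 2-fold higher (median 1.77). In Mettl3 KO cells 7 of the 8 ES cell markers were lower, 2 of them, Tdgf1 and Dppa5a, more than 2-fold, and Klf4 was higher (log2 fold change 0.58), while of the 5 primitive endoderm markers 0 were higher and 2 lower, 1 of these more than 2-fold (median −0.50). The part of these differences between the cell populations in the histone values was not tested. The 2 RBC RNA-seq libraries differed from each other by more than those of the other lines (chi-square per degree of freedom 35.6 against 2.76 to 5.75), and counts without each library are given beside the counts of members.

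In RNA-seq, H4 and H1 RNAs were the most abundant. Counts were normalised by the size factors of DESeq2, and for levels between genes they were divided by exon length in kilobases. Median levels over the 8 RNA-seq libraries were 1086 normalised counts per kb for the 13 H4 genes, 937 for H1, 865 for H3, 592 for H2B and 356 for H2A. The highest levels per kb were those of Hist1h4f (3293), Hist1h4h (3189), Hist1h4k (3104) and Hist1h1a (2789), followed by Hist2h2bb (2111), Hist1h4a (2027), Hist1h3e (1971) and Hist1h2ak (1881). H4 made up 28.4% of all normalised histone counts, H1 24.4%, H3 18.0%, H2B 17.3% and H2A 11.9%. The place of H1 depends on the data set. In every MeRIP input library the H2B total lay above the H1 total (WT26 3940 and 4185 against 3490 and 2860 normalised counts), while H4 had the highest total. Reads of near-identical copies may have been counted differently in RNA-seq and MeRIP-seq.

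H1 RNA came mostly from 3 of its 6 genes. The other types have more genes (19 H2A, 17 H2B, 11 H3 and 13 H4), so the shares that follow are not directly comparable. The 3 genes with most counts gave 78.0% of H1 (Hist1h1d, Hist1h1c and Hist1h1a), 44.3% of H2A (Hist1h2ak, Hist1h2ai and Hist1h2ab), 42.5% of H2B (Hist1h2bb, Hist1h2bg and Hist2h2bb), 50.7% of H3 (Hist1h3e, Hist1h3f and Hist1h3c) and 42.9% of H4 (Hist1h4d, Hist1h4h and Hist1h4f). At the other end, 1 H1, 3 H2A, 3 H2B and 1 H4 gene averaged fewer than 10 normalised counts. Among them is Hist1h1t, the H1 gene of the male germ line, with 1.8 to 13 normalised counts. Others are the near-identical copies Hist1h2ao, Hist1h2ap, Hist1h2bq and Hist1h2br, whose low counts need not mean low RNA levels. They had 16, 7, 13 and 6 counts over all RNA-seq libraries but 3101, 1936, 831 and 12364 over all MeRIP-seq libraries. Hist1h1d, a linker histone gene, had the most counts of all members but an annotated exon length of 7425 bases, so that its level per kb was 340. Levels per kb of genes with long annotated exons, such as Hist1h2be (4446 bases) or Hist4h4 (2863), are lower for the same reason.

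**Figure D1:**
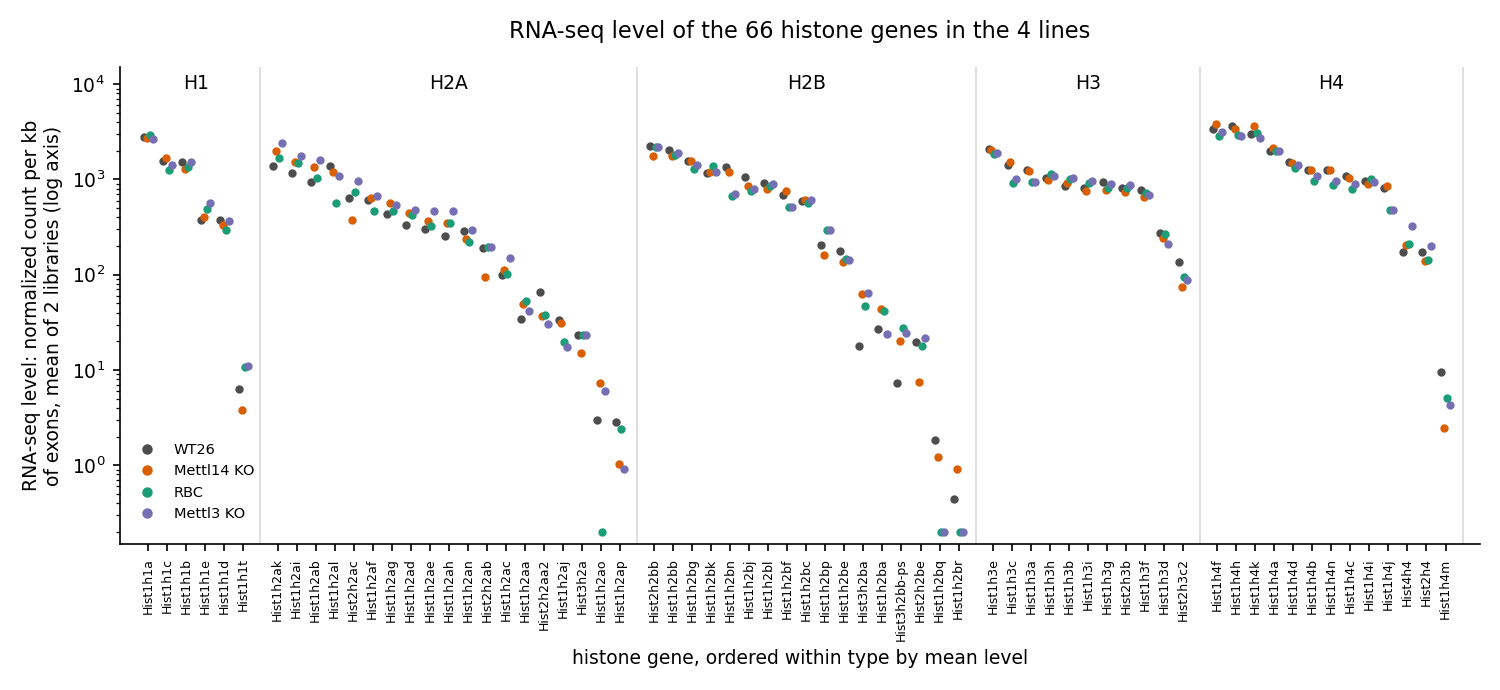
RNA-seq level of each histone gene by type, as the mean of normalised counts per kb of exon in each of the 4 lines (log axis, values under 0.2 drawn at 0.2). The H4 genes Hist1h4f, Hist1h4h and Hist1h4k lie at the top, and each type except H3 has genes near or below 10. These include Hist1h2ao, Hist1h2ap, Hist1h2bq and Hist1h2br, near-identical copies whose low counts need not mean low RNA levels.

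Summed over all members of a type, RNA levels moved little between lines. H4 totals were 11152 and 10442 normalised counts in WT26 against 11829 and 10369 in the Mettl14 KO line, and 8257 and 10423 in RBC against 8786 and 11247 in Mettl3 KO cells, so that the groups overlapped in both comparisons. H1 and H3 totals also overlapped in both. H2A totals did not overlap in either. They were 3432 and 4121 in WT26 against 4346 and 4275 in Mettl14 KO cells (ratio of means 1.14), and 3606 and 4118 in RBC against 4561 and 5953 in Mettl3 KO cells (1.36). A 75-base window of a gene counts as unique here if it matches no annotated transcript of another gene, on either strand. Over the 7 H2A genes with at least 50% unique windows, the ratio was 1.06 in Mettl14 KO cells, with overlap, and 1.44 in Mettl3 KO cells, without. H2B totals were lower in Mettl14 KO cells, with 6423 and 5827 against 6942 and 6621 in WT26 (ratio 0.903), and overlapped in Mettl3 KO and RBC cells. With 2 libraries in each group the totals were not tested.

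**Figure D2:**
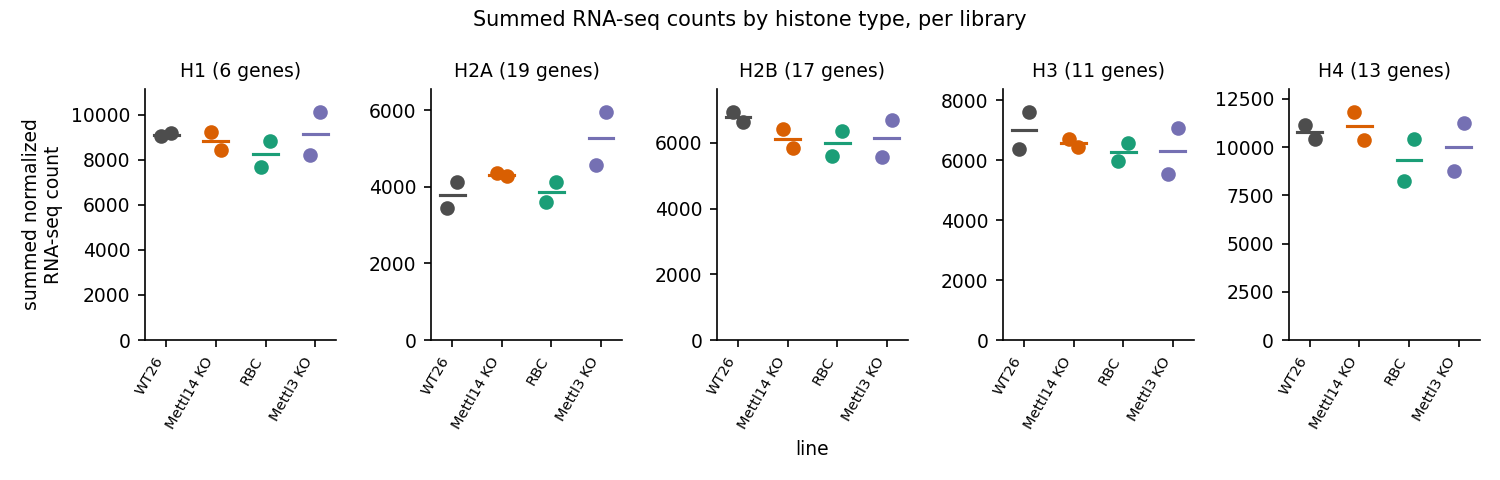
Summed normalised RNA-seq counts of each histone type (linear axis from 0), with 1 point for each of the 8 libraries and a horizontal line for the mean of each line. H2A is the type whose knockout libraries both lie above both of their control libraries in either comparison.

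Loss of Mettl14 was followed at the level of single genes. With edgeR's quasi-likelihood test over 17021 genes, genes count as called here if they differed more than 2-fold with an adjusted p no higher than 0.05. Of 61 tested members 2 were called higher and 2 lower in Mettl14 KO than in WT26 cells, against 7.95% and 6.57% of all tested genes. On the adjusted p alone 7 members were higher and 13 lower, against 25.5% and 27% of all tested genes. These counts were 4 and 9 without replicate 1 of WT26, 8 and 7 without its replicate 2, 5 and 10 without replicate 1 of Mettl14 KO and 7 and 4 without its replicate 2. The median log2 fold change of the members was −0.04 and that of all genes 0.00. By type, 4 of 17 H2A genes were higher and 4 lower, 2 of 15 H2B genes higher and 4 lower, 0 of 11 H3 genes higher and 3 lower, and 1 of 12 H4 genes higher and 1 lower, while of the 6 H1 genes Hist1h1b was lower.

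The genes that fell lay mostly in the Hist2 cluster on chromosome 3 (first to last member 96219865 to 96270132). Grouping by cluster was done after the values were seen. Of its 8 members, 7 passed the adjusted p as lower in Mettl14 KO cells and 0 as higher. Their log2 fold changes ranged from −1.39 to −0.15 around a median of −0.81. Hist2h2be, an H2B gene with no stem-loop match, had 57.9 and 45.1 normalised counts in WT26 against 14 and 25.3 in Mettl14 KO cells. This is a log2 fold change of −1.39 ± 0.31 (SE, n = 2 against 2, edgeR adjusted p = 0.00127). Hist2h2ab, an H2A gene, had 78.7 and 90.2 counts in WT26 and 42.1 and 41.9 in the knockout (−1.0 ± 0.30, edgeR adjusted p = 0.00972). The groups of both genes did not overlap. The call of Hist2h2ab lies at the threshold and is lost without replicate 2 of Mettl14 KO (edgeR adjusted p = 0.0539) or of WT26 (0.052).

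Other members of the Hist2 cluster fell by less. Hist2h2ac, which carries the octamer shown above, had 328 and 335 counts in WT26 against 188 and 201 in Mettl14 KO cells (log2 fold change −0.77, edgeR adjusted p = 1.4e-06). Hist2h3c2, an H3 gene, had 143 and 135 against 67.1 and 85.7 (−0.86, 0.000124). Hist2h2bb, the H2B gene with the highest level per kb, had 896 and 831 against 702 and 645 (−0.36, 0.00177). Knockout and wild-type libraries were separate for all of these, and Hist2h2aa2 (−0.85) and the H4 gene Hist2h4 (−0.31) also passed the adjusted p. Hist2h3b was the exception, with 337 and 466 counts against 367 and 351 (−0.15). No 75-base window of Hist2h2aa2, Hist2h2bb or Hist2h3b is unique. Reads of Hist2h2aa2 and Hist2h3b can be shared with their histone copies. Hist2h2bb shares windows with no other histone gene, but it overlaps the annotated genes Gm42743 on the same strand and Gm20628 on the other. With DESeq2's Wald test 5 of the 8 genes passed the adjusted p, and when 1 library was left out 4 to 6 did, with 4 without replicate 2 of Mettl14 KO.

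Genes next to the cluster fell with it. Within 500 kb on either side 49 genes other than histone genes were tested, of which 28 were lower and 1 higher in Mettl14 KO cells on the adjusted p alone (median log2 fold change −0.59). The median of all 902 tested genes of chromosome 3 was −0.23, and that of 602 genes of chromosome 13, where the Hist1 cluster lies, was 0.03. Of 49 tested members with Hist1 symbols, Hist1h2al included, 5 were higher and 5 lower, with a median of 0.00. In the MeRIP inputs, a separate set of libraries from the same lines, the log2 fold changes of the Hist2 members had a median of −0.15 with 0 called, and those of the Hist1 members a median of 0.32. The cause of the lower level on this stretch of chromosome 3 was not tested.

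The 2 members called higher in Mettl14 KO cells were from the Hist3 cluster. Hist3h2ba, an H2B gene, rose from 9.9 and 11.8 normalised counts in WT26 to 47.1 and 30.2 (log2 fold change 1.82 ± 0.37, SE, n = 2 against 2, edgeR adjusted p = 0.000491). The pseudogene Hist3h2bb-ps had 3.6 and 3.2 counts in WT26 against 10 and 8.8 in Mettl14 KO cells (1.42 ± 0.57, edgeR adjusted p = 0.0434), and its call is lost without any 1 of the 4 libraries (0.0968 to 0.156). The neighbouring Hist3h2a went the other way, with 53.4 and 47.2 against 32.0 and 33.1 counts (−0.63, 0.0413). For all 3 genes knockout and wild-type libraries were apart, and all 3 are weakly expressed. In RBC cells, the other control line, Hist3h2ba had 21.8 and 35.5 and Hist3h2bb-ps 12.6 and 12.8 counts, so both genes were also higher there than in WT26.

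The 3 H2A genes with most RNA passed the adjusted p as higher in both knockouts, and Hist1h2ak did so with every library left out. Hist1h2ak had 495 and 601 normalised counts in WT26 against 821 and 749 in Mettl14 KO cells, and the other pair of lines had 620 and 713 (RBC) against 826 and 1089 (Mettl3 KO). Its log2 fold change was 0.52 in Mettl14 KO (edgeR adjusted p = 0.0009) and 0.52 in Mettl3 KO cells (0.000732), and each knockout lay above its control. Hist1h2ab had 412 and 486 counts in WT26 against 662 and 627 in Mettl14 KO cells and 415 and 567 (RBC) against 616 and 885 (Mettl3 KO) in the other pair (0.53, edgeR adjusted p = 0.00518, and 0.60, 0.00162). Hist1h2ai had 408 and 519, 569 and 634, 601 and 562 and 665 and 714 counts in the same order (0.38, 0.00286, and 0.25, 0.0342). Again the knockout libraries lay above those of their controls. In Mettl14 KO cells Hist1h2ab (edgeR adjusted p = 0.0729) and Hist1h2ai (0.0942) no longer passed without replicate 1 of WT26, and Hist1h2ab did not pass DESeq2's Wald test (adjusted p = 0.0857). In Mettl3 KO cells Hist1h2ai did not pass without replicate 2 of Mettl3 KO (edgeR adjusted p = 0.127) or of RBC (0.177), nor with DESeq2 (0.087). Hist1h2ai has unique sequence in 10.7% of its windows, Hist1h2ab in 44.6% and Hist1h2ak in 68.0%.

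Mettl3 KO cells showed no member past the 2-fold threshold. With edgeR 0 of 61 tested members were called in either direction, against 6.15% (higher) and 7.43% (lower) of all tested genes, with 19 members at an unadjusted p under 0.05. DESeq2's Wald test also called 0, with 10 at an unadjusted p under 0.05. On the adjusted p alone 11 members were higher and 2 lower than in RBC cells, against 25.2% and 28.1% of all tested genes, and the median log2 fold change was 0.10. These counts depend on single libraries: 27 were higher and 0 lower without replicate 1 of Mettl3 KO, 7 and 9 without replicate 2, 7 and 4 without replicate 1 of RBC, and 15 and 1 without its replicate 2. H2A genes made up 8 of the 11 (of 17 tested, median 0.38), and 5 to 12 H2A genes were higher when 1 library was left out. No H2B gene passed, Hist1h3d (−0.38) and Hist1h1a (−0.16) were the 2 that were lower, and Hist1h1d (0.32), Hist4h4 and Hist2h4 completed the higher ones. Hist1h1d (edgeR adjusted p = 0.244), Hist2h4 (0.0578) and Hist1h3d (0.0651) did not pass without replicate 1 of RBC, nor Hist1h1a (0.397) without its replicate 2.

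The largest of these differences was that of Hist1h2al, annotated as an H2A pseudogene. It had 200 and 182 normalised counts in RBC against 325 and 407 in Mettl3 KO cells (log2 fold change 0.93 ± 0.11, SE, n = 2 against 2, edgeR adjusted p = 1.7e-06), and 447 and 491 in WT26 against 418 and 387 in Mettl14 KO cells. Mettl3 KO cells thus lay above RBC and below both WT26 libraries. Hist4h4, the only member on chromosome 6, had 538 and 666 counts in RBC against 863 and 1017 in Mettl3 KO cells (0.64 ± 0.10, 2.77e-05), apart from each other, and 513 and 482 in WT26 against 630 and 549 in Mettl14 KO cells (0.24, 0.0561). Hist2h4 had 206 and 260 counts in RBC against 304 and 354 in Mettl3 KO cells (0.49, 0.00243), where the Hist2 cluster as a whole had 2 members higher and 0 lower. Hist1h2af rose from 176 and 199 to 236 and 293 (0.49, 0.00212).

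**Figure D3:**
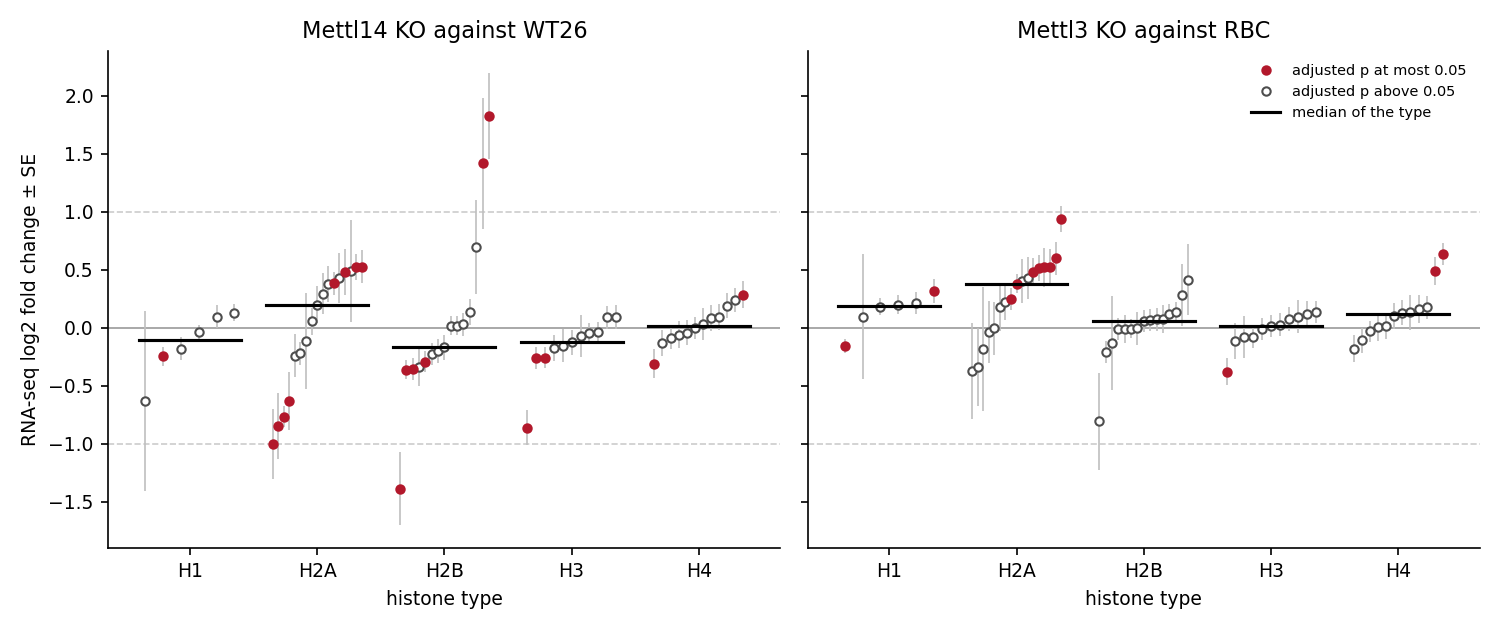
Log2 fold changes of the 61 tested histone genes in RNA-seq by type, Mettl14 KO against WT26 and Mettl3 KO against RBC, as points with SE bars, filled where the edgeR adjusted p is at most 0.05, with the median of each type as a line and dashed lines at 2-fold. Hist2h2be at −1.39 and Hist3h2ba at 1.82 are the extremes in Mettl14 KO cells, and the H2A genes of Mettl3 KO cells lie mostly above 0.

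The most abundant genes of the other types did not pass the test in either knockout, apart from Hist1h1d and Hist1h1a in Mettl3 KO and Hist1h3f and Hist2h2bb in Mettl14 KO cells. Hist1h4h, an H4 gene, had 1723 and 1670 normalised counts in WT26 against 1608 and 1577 in the Mettl14 KO line, and 1215 and 1516 in RBC against 1191 and 1494 in Mettl3 KO cells (log2 fold changes −0.09 and −0.03). Hist1h4f had 1383 and 1237, 1646 and 1351, 1005 and 1226 and 1085 and 1369 (0.19 and 0.13). Hist1h3e, the most abundant H3 gene, had 1641 and 1868, 1740 and 1677, 1474 and 1634 and 1360 and 1791 (−0.04 and 0.02). For Hist1h3e and Hist1h4f knockout and control libraries overlapped in both comparisons.

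The control lines themselves differed. Between RBC and WT26 cells 2 members were called higher and 2 lower, against 4.86% and 4.12% of all tested genes, and on the adjusted p alone 8 were higher and 18 lower, against 19.7% and 19.2%. The latter counts were 7 and 7 without replicate 1 of RBC, 1 and 20 without its replicate 2, 1 and 11 without replicate 1 of WT26 and 8 and 12 without its replicate 2. The 2 called higher were Hist3h2ba (log2 fold change 1.42, edgeR adjusted p = 0.00854) and Hist3h2bb-ps (1.85, 0.0104). Hist1h2al was called lower, with the counts given above (−1.29, 5.03e-08), and so was Hist1h2bn, an H2B gene, with 548 and 469 counts in WT26 and 267 and 244 in RBC cells (−1.0, 2.05e-06). The call counts fell to 0 higher and 1 lower without replicate 1 of WT26 or replicate 2 of RBC, and to 1 higher without replicate 2 of WT26. Of the 12 tested H4 genes 5 were lower and 1 higher in RBC on the adjusted p alone, with Hist1h4j lowest (−0.76). The H4 totals of RBC (8257 and 10423) lay just below those of WT26 (10442 and 11152).

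The difference between the knockouts, (Mettl3 KO − RBC) − (Mettl14 KO − WT26), was tested as an interaction. At an adjusted p of at most 0.05 it was above 0 in 13 members and below 0 in 3, against 20.8% and 22.4% of all tested genes. In the Hist2 cluster it was above 0 in 5 of 8 members and below 0 in 0, with a median of 0.77. The largest was Hist2h2be (1.67, edgeR adjusted p = 0.00322), whose counts in RBC (50.6 and 42.4) and Mettl3 KO cells (43.5 and 70.5) overlapped. Hist2h2ac followed in the same cluster (1.15, 6.37e-07), with 389 and 387 counts in RBC against 487 and 525 in Mettl3 KO cells. Of the 49 neighbouring genes 21 had a difference above 0 and 2 below. The count above 0 ranged from 6 without replicate 1 of RBC to 28 without replicate 1 of Mettl3 KO, and DESeq2 gave 5 above and 0 below.

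Genes that make, bind or degrade histone mRNA changed less than 2-fold. In a list of 20 such genes 3 were higher and 7 lower in Mettl14 KO cells on the adjusted p alone, and 4 higher and 7 lower in Mettl3 KO cells, with 0 called in both. For this list and those that follow, the shares of all tested genes were 25.5% higher and 27% lower for Mettl14, and 25.2% and 28.1% for Mettl3. Slbp, the stem-loop binding protein, had 948 and 1003 normalised counts in WT26 against 1046 and 991 in the Mettl14 KO line, and 1025 and 1079 in RBC against 686 and 729 in Mettl3 KO cells (log2 fold changes 0.06 and −0.57). Lsm11, a subunit of the U7 snRNP, had 217 and 210 and then 309 and 317 counts, and 208 and 189 and then 357 and 348 (0.55 and 0.83). Lsm11 was thus higher in both knockouts, and Slbp lower in Mettl3 KO cells, each without overlap with the control.

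Among DNA replication genes more were lower than higher. Of 31 DNA replication genes 2 were higher and 16 lower in Mettl14 KO cells on the adjusted p alone, and Mettl3 KO cells had 7 higher and 18 lower, among them Ccne2, cyclin E2, which was called in Mettl3 KO cells (log2 fold change −1.04). Of 17 mitosis genes 2 were higher and 13 lower in Mettl14 KO cells, with the survivin gene Birc5 called higher (1.05), and 1 was higher and 8 lower in Mettl3 KO cells. Histone chaperones were higher for 3 and lower for 8 of 15 genes in Mettl14 KO and higher for 0 and lower for 7 in Mettl3 KO cells. Replacement variants, which are made outside S phase, were higher for 2 and lower for 4 of 11 genes in Mettl14 KO and higher for 6 and lower for 3 in Mettl3 KO cells, where the linker histone H1fx was called (1.54). Their part in the levels of the members was not tested, and in bulk RNA fewer cells in S phase cannot be told apart from less RNA per cell.

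In the MeRIP inputs no member was called. With edgeR 0 of 62 tested members passed in either comparison, against 0.124% (higher) and 0.274% (lower) of 22621 features in Mettl14 KO against WT26 and 0.181% and 0.57% in Mettl3 KO against RBC (0.579% lower on the adjusted p alone). At an unadjusted p under 0.05 there were 6 and 3 members, and DESeq2's Wald test called 0 with 7 and 4. H2A inputs were again higher: their summed normalised counts were 1270 and 1552 in WT26 against 1789 and 3153 in Mettl14 KO cells (ratio 1.75), and 1395 and 1190 in RBC against 2194 and 1733 in Mettl3 KO cells (1.52), without overlap. The rise was not confined to H2A. Of the 62 members 53 (Mettl14 KO) and 57 (Mettl3 KO) had a log2 fold change above 0. Their medians were 0.27 and 0.29, against 0.02 and 0.01 over all features. H3 totals also did not overlap between Mettl3 KO (3182 and 3234) and RBC inputs (2939 and 2481). Totals of all members were 17975 and 27153 in Mettl14 KO against 16746 and 19387 in WT26 inputs. The spread of these libraries was larger than in RNA-seq (biological coefficient of variation 0.273 against 0.0625).

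Enrichment in the m6A IP differed by histone type. A gene was called enriched or depleted when IP and input of a line differed more than 2-fold at an adjusted p of at most 0.05. In WT26 cells 7 of 62 tested members were enriched and 10 depleted, against 14.5% and 13.5% of all features, and in RBC cells 6 and 14, against 13.4% and 11.1%. In Mettl14 KO cells the counts were 6 and 11, against 11.9% and 9.91%, and in Mettl3 KO cells 14 and 7, against 2.54% and 1.86%. On the adjusted p alone the Mettl3 KO counts were also 14 and 7, against 2.78% and 2.22%. Median log2 IP over input was 1.31 in WT26 and 1.17 in RBC for H1, −0.05 and −0.24 for H2A, 0.40 and 0.25 for H2B, 0.11 and −0.67 for H3 and −1.39 and −1.98 for H4. No H4 gene was called enriched and no H1 gene depleted in any of the 4 lines.

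**Figure D4:**
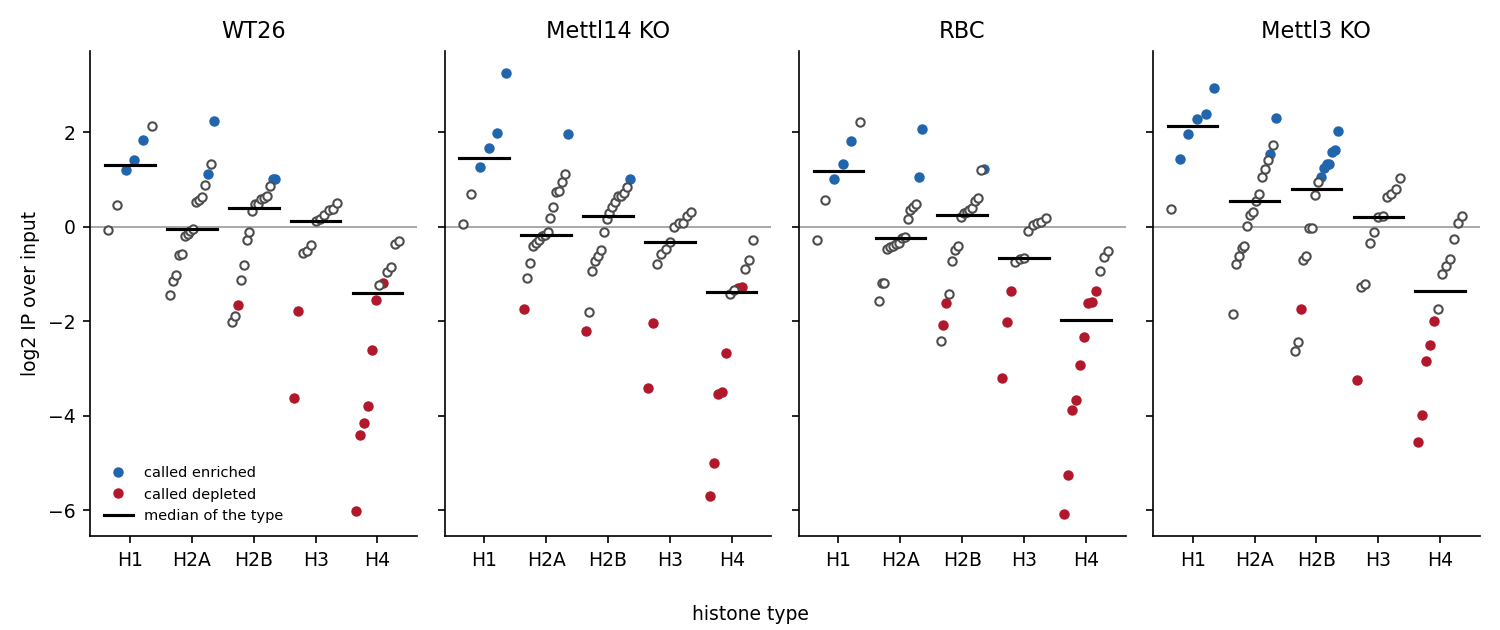
Log2 IP over input of the tested histone genes by type in each line, with the median of each type as a line (Hist1h2ap, whose inputs were 0 in RBC, is not drawn). H1 genes lie highest, with medians of 1.17 to 2.12, and H4 genes lowest, with medians of −1.98 to −1.36.

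H4 transcripts were depleted in every line. Summed over the 13 genes, a total that does not depend on how reads were divided among the H4 copies, the inputs of WT26 held 5005 and 7057 normalised counts and the IPs 1991 and 1314. In RBC the inputs held 4157 and 6494 and the IPs 1406 and 988. In Mettl14 KO cells they held 5533 and 9732 against 2668 and 1286, and in Mettl3 KO cells 5209 and 7617 against 2693 and 2405. The ratio of IP to input means was 0.274, 0.225, 0.259 and 0.397 in this order. Every IP lay below every input of its line, and in each line replicate 2 had the higher input and the lower IP. Depletion was called for 7, 9, 7 and 5 of the 12 tested H4 genes in WT26, RBC, Mettl14 KO and Mettl3 KO cells.

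Single H4 genes spanned a wide range. Hist1h4h fell from 862 and 1230 normalised input counts to 19.8 and 11.7 IP counts in WT26, a log2 IP over input of −6.00 ± 0.62 (SE, n = 2 against 2, edgeR adjusted p = 0.000296). In RBC it had 651 and 1101 input and 20.8 and 2.0 IP counts (−6.07, 0.000407), in Mettl14 KO cells 857 and 1684 against 28.2 and 19.2 (−5.69, 0.0004) and in Mettl3 KO cells 799 and 1076 against 36.4 and 43.7 (−4.55, 0.00233). No IP of Hist1h4h came near its inputs. Hist1h4n (−4.40 in WT26 and −5.25 in RBC), Hist1h4c (−4.15 and −3.87), Hist4h4 (−3.80 and −3.67) and Hist1h4d (−2.60 and −2.92) were depleted in all 4 lines as well. Hist1h4b, by contrast, had 123 and 142 input and 108 and 108 IP counts in WT26 (−0.30) and 106 and 135 against 99.2 and 67.4 in RBC (−0.52), and was not called in any line. Hist1h4f had 474 and 989 against 541 and 268 in WT26 (−0.85), which overlap. Unique windows make up 57.6% in Hist1h4h, 26.0% in Hist1h4b and 16.6% in Hist1h4n, so reads of these genes can be shared with copies. They make up 75.4% in Hist1h4f, 83.1% in Hist1h4c, 94.6% in Hist4h4 and 96.3% in Hist1h4d.

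**Figure D5:**
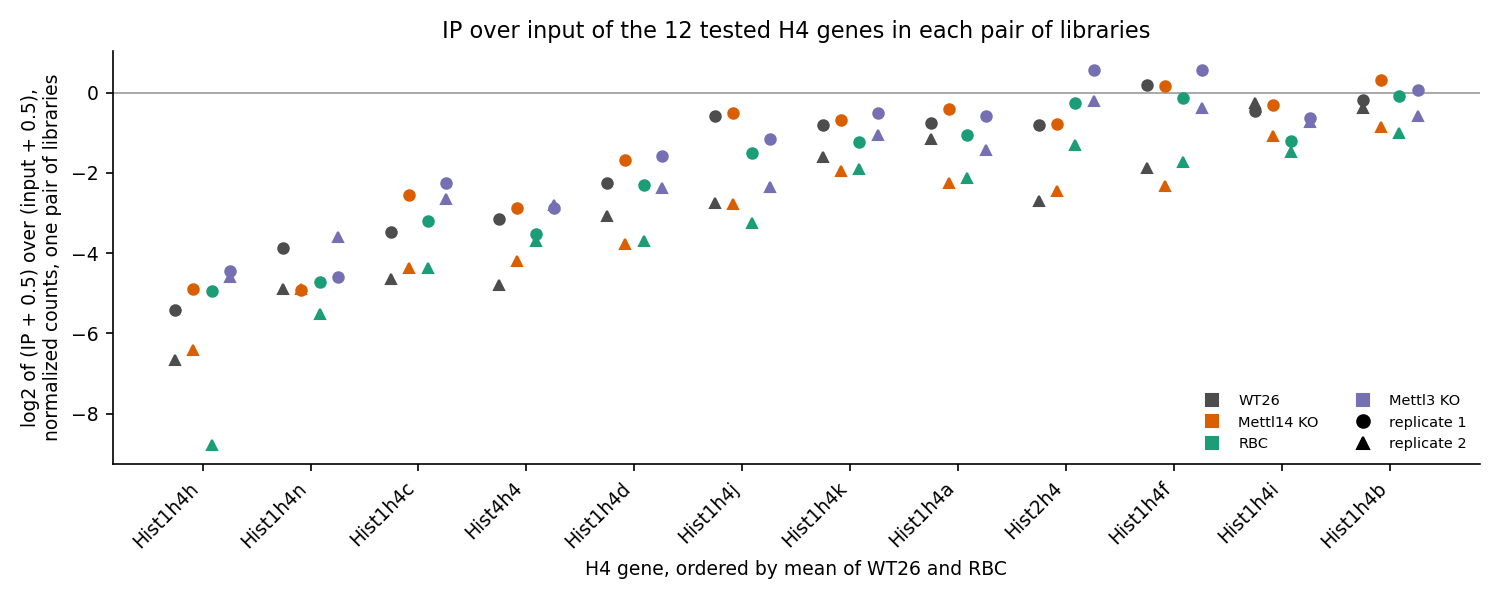
Log2 of IP over input for each of the 12 tested H4 genes in each input and IP pair (circles replicate 1, triangles replicate 2, 0.5 added to both normalised counts), by line. Hist1h4h and Hist1h4n are the lowest genes in all lines, Hist1h4b lies among those nearest to 0, and triangles lie below circles for most genes.

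The strongly and weakly depleted H4 genes carry nearly the same RRACH sites. Coding positions are counted from 1 at the A of the start codon, and the site is in capitals with 8 bases on each side, in the direction of the gene. Hist1h4h, the most depleted gene, and Hist1h4b, a gene among the least, hold AGACC at position 161 and again at position 239, so that the sequence shown serves for both genes. Hist1h4f differs at the first site, Hist1h4n at the second, and Hist4h4 has only the first.
Hist1h4h, position 161, chr13:23531275-23531279, + strand: ctacgaggAGACCcgcggtgt
Hist1h4h, position 239, chr13:23531353-23531357, + strand: caagcgcaAGACCgtcaccgc
Hist1h4f, position 161, chr13:23551479-23551483, − strand: ctacgaggAAACCcgcggtgt
Hist1h4n, position 239, chr13:21831916-21831920, − strand: caagcgcaAGACTgtcaccgc
Hist4h4, position 161, chr6:136804215-136804219, − strand: ctacgaggAGACTcgcggtgt
AGACC was present on the sense strand in the first 309 coding bases of 34.0% of 20930 other coding genes.

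H3 genes were split. Hist1h3e, the most abundant H3 gene, had 691 and 787 normalised input counts and 74.1 and 45 IP counts in WT26 (log2 IP over input −3.62 ± 0.45, SE, n = 2 against 2, edgeR adjusted p = 0.00108), and 642 and 514 against 73.1 and 52.3 in RBC (−3.19, 0.00276). It was depleted in all 4 lines, with every IP far below the inputs. Hist2h3b was depleted in WT26 (−1.79), RBC (−2.00) and Mettl14 KO cells (−2.04). Hist1h3g had 248 and 241 input and 443 and 249 IP counts in WT26 (0.50) and 252 and 177 against 265 and 195 in RBC (0.11), and was called in no line. All 11 H3 genes hold GGACT at coding position 231, and no H1, H2A, H2B or H4 member has GGACT in its coding sequence. It was present on the sense strand in the first 408 coding bases of 40.0% of 20146 other coding genes.
Hist1h3e, position 231, chr13:23562131-23562135, − strand: atcgcgcaGGACTtcaagacc
Hist1h3g, position 231, chr13:23535676-23535680, + strand: atcgcgcaGGACTtcaagacc
The 2 genes thus have the same letters around this site and IP over input values of −3.62 and 0.50 in WT26. Unique windows make up 40.6% in Hist1h3e and 53.9% in Hist1h3g, so reads of both genes can be shared with copies. No window of Hist2h3b is unique.

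H1 was the type with the highest median IP over input in all 4 lines. Hist1h1c, a linker histone gene, had 889 and 849 normalised input and 2781 and 3389 IP counts in WT26 (log2 IP over input 1.83 ± 0.41, SE, n = 2 against 2, edgeR adjusted p = 0.00824). In RBC the counts were 682 and 872 against 1755 and 3668 (1.8, 0.0107), in Mettl14 KO cells 1056 and 1322 against 3603 and 5783 (1.98, 0.00952) and in Mettl3 KO cells 956 and 954 against 2984 and 7023 (2.39, 0.00898). Input and IP did not overlap in any line. Hist1h1b (1.42 in WT26 and 1.33 in RBC) and Hist1h1d (1.20 and 1.0) were also enriched in all 4 lines. Hist1h1a, the H1 gene with the highest level per kb, had 846 and 677 against 1069 and 372 in WT26 (−0.08) and was called in no line. The summed H1 counts of the IPs were 2.29, 2.04, 2.57 and 3.71 times those of the inputs in WT26, RBC, Mettl14 KO and Mettl3 KO cells, without overlap.

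Enriched genes of the other types were 2 H2A and 2 H2B genes in WT26, 2 and 1 in RBC and 1 and 1 in Mettl14 KO cells. Mettl3 KO cells had 2 H2A and 7 H2B genes called enriched, beside 5 H1 genes. Hist1h1t, 1 of these H1 genes, was also called in Mettl14 KO cells and had almost no input counts. Its normalised counts were 1.8 and 3.2 in the Mettl3 KO inputs against 18.9 and 18.7 in the IPs. In Mettl14 KO cells they were 0.9 and 0.0 against 3.9 and 10.9. Hist1h2af had 66 and 84.8 normalised input and 320 and 382 IP counts in WT26 (log2 IP over input 2.23 ± 0.43, SE, n = 2 against 2, edgeR adjusted p = 0.00651) and 2.06, 1.97 and 2.29 in RBC, Mettl14 KO and Mettl3 KO cells. It was enriched in all 4 lines. Hist1h2bn was as well, with 235 and 212 against 580 and 319 counts in WT26 (1.01) and 1.22 in RBC, and Hist1h2ab was in WT26 (1.12), RBC (1.04) and Mettl3 KO cells. Hist1h2bk, an H2B gene, was depleted in all 4 lines, with 316 and 344 against 137 and 72.0 in WT26 (−1.65). Unique windows make up 13.2% in Hist1h2af, 44.6% in Hist1h2ab, 27.7% in Hist1h2bn and 27.4% in Hist1h2bk, so their reads can be shared with copies. Of the H2A genes with at least 50% unique windows, 0 passed the adjusted p as enriched in any of the 4 lines.

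Calls of enrichment and depletion depended on single libraries. Leaving out 1 library leaves 1 library in a group, and the number of calls over all features changed strongly as well. The counts of members that follow therefore do not set histone genes apart from other features. Without 1 library of the line, between 0 and 4 members were called enriched in WT26, 0 and 5 in RBC, 0 and 4 with Mettl14 lost and 0 and 12 with Mettl3 lost, with 0 in WT26 without replicate 2 of the input and in RBC without replicate 2 of either the input or the IP. Between 5 and 16 were depleted in WT26, 6 and 16 in RBC, 5 and 14 with Mettl14 lost and 3 and 6 with Mettl3 lost. Hist1h4h, Hist1h4n and Hist4h4 kept their depletion calls in all 4 lines whichever of the line's libraries was left out. Hist1h2bn lost its call in WT26 and in Mettl14 KO cells without any 1 of 4 libraries.

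Coding sequences of H2A, H2B and H4 hold fewer RRACH sites than those of H1 and H3. Medians per kb of coding sequence were 15.4 in H1, 12.3 in H3, 6.47 in H4, 5.17 in H2A and 3.74 in H2B, and 6.47 over all coding members against 15.3 over 20993 other coding genes of at least 300 coding bases. The share of A was 20.5% in the members and 25.3% in the others (medians). Over 61 coding members Spearman's rho of the mean log2 IP over input of WT26 and RBC was 0.09 with RRACH sites per kb, 0.22 with the share of A and 0.07 with exon length, and −0.09, 0.03 and −0.08 over the 55 members other than H1. These are descriptions across genes that share libraries and near-identical sequences. H3 genes, which hold nearly as many sites per kb as H1 genes, had median IP over input values near or below 0. Genes with and without stem-loop letters after the searched stop codon had medians of −0.21 (54 genes) and −0.48 (7 genes).

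No change of enrichment was called in either knockout. The difference of log2 IP over input between a knockout and its control passed the adjusted p for 0 of 62 members and for 0% of all 22621 features, in both comparisons. At an unadjusted p under 0.05 there were 0 members for Mettl14 and 7 for Mettl3, and DESeq2's Wald test called 0 with 0 and 11. The median difference was −0.08 for Mettl14 and 0.68 for Mettl3, against 0.02 and 0.01 over all features, and 54 of 62 members were above 0 in Mettl3 KO cells, among them all 12 H4 and all 6 H1 genes. The Mettl14 median changed sign with the library left out, from −0.38 without replicate 1 of its own IP to 0.41 without replicate 1 of the WT26 IP, and the Mettl3 median was 0.53 to 0.83. For the H4 totals log2 IP over input was −1.56 (RBC) against −0.95 (Mettl3 KO) in replicate 1 and −2.72 against −1.66 in replicate 2, so that Mettl3 KO was higher at both numbers while the ranges of the lines overlapped. In WT26 against Mettl14 KO cells it was −1.33 against −1.05 and −2.42 against −2.92. Same-numbered IPs of different lines deviated together (correlation across features 0.59 to 0.80), as did inputs less strongly (0.25 to 0.45). A block on these numbers, chosen after seeing the data, gave 24 rather than 7 members at an unadjusted p under 0.05 for Mettl3, with 0 called. For the H1 totals it was 0.96 and 1.09 in RBC against 1.49 and 2.23 in Mettl3 KO cells, without overlap. The share of all features called in the IP was lower in Mettl3 KO cells than in the other lines (2.54% enriched), and its part in the members' values was not tested.

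Some copies cannot be told apart by their reads. Hist1h2ao and Hist1h2ap, H2A genes with unique sequence in 6.90% and 7.35% of their windows, had 16 and 7 counts over all RNA-seq libraries but 3101 and 1936 over all MeRIP-seq libraries. Hist1h2ap had 0 to 519 counts in a MeRIP-seq library, with 0 in both RBC inputs, while the sum of both genes was 260 and 259 normalised counts in the RBC inputs and 233 and 279 in those of WT26, so single values of Hist1h2ap are uncertain. Hist1h2bq and Hist1h2br had 13 and 6 counts in RNA-seq and 831 and 12364 in MeRIP-seq. The MeRIP-seq counting divides reads with several positions among genes and repeats, and how such reads entered the RNA-seq counts is not given in the sources used here. Hist1h1e and Hist1h2be overlap on the same strand, as do Hist3h2a and Trim17, so that their counts can hold reads of the partner. Of all members 36 have unique sequence in at least 50% of their windows, and among these H4 totals in the IP were 0.266 (WT26) and 0.215 (RBC) of the inputs.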

How the data were processed

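Whole-number gene counts of 8 RNA-seq and 16 MeRIP-seq libraries were deposited by the authors. They trimmed reads with cutadapt 1.8.1 and aligned them to GRCm38 with STAR 2.6.0c. MeRIP-seq counts of genes and repeats came from TEtranscripts, which divides multimapping reads, and the RNA-seq counter is not given in the sources used here. The submitters' processing notes name DESeq2 1.26.0, and the methods give another version for repeats. The labels give total RNA and the methods nuclear RNA.

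Here counts were scaled by DESeq2 1.42.0 size factors, filtered with filterByExpr and tested with edgeR 4.0.16 (R 4.3.3) in 1 quasi-likelihood fit per table, with Benjamini-Hochberg adjustment over all 17021 genes or 22621 features. SE is the absolute log2 fold change over the square root of F. Levels were divided by annotated exon length. The steps were tested on simulated counts. Members, gene lists and tests were chosen with earlier results of these data known. Named were the 3 genes with most normalised RNA-seq counts of each type, up to 5 called rises and falls per RNA-seq comparison with a mean of at least 50 normalised counts and no overlap, up to 5 enriched and 5 depleted in both controls, and members in a count of 5 or fewer. Other genes were named after their values were seen. Input and IP of a replicate came from the same sonicated RNA, and their deviations from group means correlated at 0.20 to 0.29. Alternatives were TMM, library size, DESeq2's Wald test, other filters, replicate blocks, compared groups only, genes with at least 50% unique windows and leaving out each library.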

Additional observations from a re-analysis of the deposited data

Results flagged for a closer look

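The following 16 members had a difference between the knockouts, (Mettl3 KO − RBC) − (Mettl14 KO − WT26) in log2 RNA-seq counts, that passed edgeR's interaction test at an adjusted p of at most 0.05. In the Hist2 cluster the differences were 1.67 for Hist2h2be, 1.15 for Hist2h2ac, 0.80 for Hist2h4, 0.75 for Hist2h3c2 and 0.35 for Hist2h2bb. For the pseudogene Hist1h2al, which lies on chromosome 13 away from the Hist1 cluster, the difference was 1.15. In the Hist1 cluster and Hist4 they were 0.49 for Hist1h1d, 0.44 for Hist1h1b, 0.43 for Hist1h2af, 0.40 for Hist1h3g, 0.39 for Hist4h4, 0.35 for Hist1h2bj and 0.34 for Hist1h2be. The difference was below 0 for Hist1h4k (−0.47), Hist3h2ba (−1.41) and Hist1h2ba (−1.5). Hist1h2ba, a testis-type H2B gene, had 9.0 and 11.8 normalised counts in WT26 against 16 and 17.5 in Mettl14 KO cells and 11.5 and 20.7 (RBC) against 10.4 and 8.1 (Mettl3 KO), so it is weakly expressed in all lines. Each difference also holds the difference between the control lines, which was itself past the test for Hist1h2al, Hist1h1d, Hist1h2af, Hist1h2be, Hist1h2bj, Hist2h2ac, Hist2h3c2, Hist3h2ba and Hist4h4.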

How the results depend on the processing

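Counts are given as members higher and lower. On the adjusted p alone they were 7 and 13 (Mettl14 KO), 11 and 2 (Mettl3 KO) and 8 and 18 (RBC against WT26). DESeq2's Wald test gave 1 higher in Mettl14 KO, 1 and 1 in RBC against WT26 and 5 and 0 for the difference between the knockouts. Scaling by library size gave 1 higher in Mettl14 KO, 1 higher in Mettl3 KO, 22 and 1 for the difference and 15 enriched in both WT26 and Mettl14 KO. Under it the median of all features was 0.37 to 0.49 in IP over input and −0.16 to 0.18 in RNA-seq, against −0.01 to 0.02 and −0.01 to 0.00 with size factors. It set the log2 IP over input of type totals to 1.61 (WT26), 1.48 (RBC) and 1.79 (Mettl14 KO) for H1, 0.62 (RBC) and 1.16 (Mettl3 KO) for H2A, 0.83 (WT26), 0.56 (RBC) and 0.74 (Mettl14 KO) for H2B, and −0.13 (RBC) and 0.34 (Mettl3 KO) for H3, and the RNA-seq totals of RBC over WT26 to −0.29 (H1) and −0.33 (H2B). At least 10 counts in every library left 1 higher in Mettl14 KO and 1 in RBC against WT26. Fits of the compared groups alone gave 1 and 1 in Mettl14 KO, 1 lower in RBC and 11 depleted in Mettl3 KO. With no filter there was 1 higher in Mettl14 KO, 13 were depleted in Mettl3 KO, 1 was higher in its input and 1 had lower enrichment. Genes with at least 50% unique windows gave 1 lower in each of the Mettl14 KO and RBC comparisons, and 4 and 5 (WT26), 3 and 9 (RBC), 5 depleted (Mettl14 KO) and 8 and 4 (Mettl3 KO) in the IP. TMM gave 1 lower in RBC.

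Same-numbered RNA-seq libraries share only a number (correlation of deviations −0.07 for WT26 and Mettl14 KO, 0.46 for RBC and Mettl3 KO). A replicate block gave 2 and 2 in Mettl14 KO, 0 and 0 in Mettl3 KO, 2 and 1 in RBC and 15 and 2 for the difference. Blocking input and IP pairs gave 5 and 11, 6 and 14, 5 and 10, and 10 and 6 in WT26, RBC, Mettl14 KO and Mettl3 KO. A block of numbers within inputs and within IPs, chosen after seeing the data, gave 23 enriched in Mettl3 KO and 2 higher in the Mettl14 KO input.

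Without 1 library, members ranged over 1 to 1 higher and 1 to 2 lower in Mettl14 KO, 0 to 1 higher in Mettl3 KO, 0 to 2 higher and 1 to 2 lower in RBC, and 6 to 28 and 0 to 5 for the difference. In the IP 0 to 4 and 5 to 16 (WT26), 0 to 5 and 6 to 16 (RBC), 0 to 4 and 5 to 14 (Mettl14 KO) and 0 to 12 and 3 to 6 (Mettl3 KO) were called. No named gene reversed. The cause of these changes was not tested. With 2 libraries a group and a MeRIP-seq spread of 0.273, the main fit called no feature as changed in enrichment, whatever the size. That no member was called therefore does not show that enrichment was unchanged.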
